A study of Mus musculus with 2 samples.

Results

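Sox6 and Cux1 encode transcription factors, and the genomic windows that hold them carried more methylation outside CpG dinucleotides than most of the genome in dentate gyrus DNA. The windows were chr7:122610000-123185000 for Sox6 and chr5:136720000-137050000 for Cux1, in build mm9. They were chosen by the CHG level of replicate 2 at sites of at most 100 reads, so their CHG levels are given as a description with no test. Both were read in 25 kb steps counted from the lower end, 23 steps for Sox6 and 13 for Cux1. These 36 steps stand against 94324 autosomal 25 kb bins that had at least 50 CHG sites.

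The study sequenced bisulfite-converted DNA of dentate gyrus dissected from untreated male C57Black6 mice of 8 to 10 weeks, labelled wild type, in 1 group of 2 libraries that the design text calls biological replicates. The labels do not say how many animals entered a library. Replicate 2 listed 18322704 CHG, 6231179 CHH and 2881459 CpG cytosines at median depths of 23, 32 and 23 reads, while replicate 1 listed 39325, 124736 and 7959 and had almost no site in the windows. Levels in the windows therefore come from 1 library, with no spread between animals and no test between groups.

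Sox6 is a SoxD factor with an HMG box, known in the forebrain for its part in the development of cortical interneurons. Cux1 is a homeodomain factor with CUT repeats and a marker of upper-layer cortical neurons. Bisulfite treatment turns unmethylated cytosine into uracil, read as thymine, and does not separate methylcytosine from hydroxymethylcytosine. Most CpG cytosines of mammalian DNA are methylated. Adult neurons also carry methylation at other cytosines (CpH, where H is A, C or T), which is laid down by Dnmt3a and is most frequent before adenine. CpH sites are divided into CHG and CHH. The tissue holds granule neurons and other cells, so a level is an average over cell types, and more methylated cells cannot be told apart from more methylation per cell.

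No gene positions of mm9 were used, so the content of the windows was checked with promoter sequences from RefSeq (GRCm38.p6). Each sequence was slid along the locus until its cytosines fell on listed cytosines of the same context. Of 104 sequences tried, 9 were placed by this rule, which was set after values had been seen. The rule allows no mismatch, so its absence is no support for a placement. A pair of alternative Sox6 promoters fell inside the Sox6 window, with 19 listed cytosines matching in one (5 at the next-best place) and 6 in the other (4 at the next-best place). In the Cux1 window the promoter of Gm16599, which the RefSeq table places within Cux1, matched at 13 listed cytosines (4 at the next-best place). Some sequences matched as well at places left out only because no other sequence had the same shift. Examples are a Gm44867 promoter (10 matching, 8 at the next-best place) and that of Insc (6 and 4). The Sox6 match at 6 cytosines is thus weak without the shared shift. The promoter of A730082K24Rik was placed below the Sox6 window and those of Gm44867 and Gm46018 above it. Those of Gm40346 and Dtx2 were placed below the Cux1 window and that of Znhit1 above it. The other 4 Sox6 promoters and the Cux1 promoter met the rule at no place. Sox6 and Cux1 are minus-strand genes in RefSeq, so each gene's 5′ side is the upper end of its window. The tables list plus-strand cytosines.

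The 3 promoters placed inside the windows show what the levels below are built from, because each level sums many cytosines like these. Each sequence is the plus strand, 5′ to 3′, of the 250 bases before the start, and capitals mark the cytosines listed in replicate 2.
Sox6, chr7:122989654-122989903: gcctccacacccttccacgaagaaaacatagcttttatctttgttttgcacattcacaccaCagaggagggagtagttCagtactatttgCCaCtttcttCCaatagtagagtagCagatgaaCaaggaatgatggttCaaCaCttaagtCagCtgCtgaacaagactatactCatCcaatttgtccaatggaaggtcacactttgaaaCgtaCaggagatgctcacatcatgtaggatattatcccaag
Sox6, chr7:122968224-122968473: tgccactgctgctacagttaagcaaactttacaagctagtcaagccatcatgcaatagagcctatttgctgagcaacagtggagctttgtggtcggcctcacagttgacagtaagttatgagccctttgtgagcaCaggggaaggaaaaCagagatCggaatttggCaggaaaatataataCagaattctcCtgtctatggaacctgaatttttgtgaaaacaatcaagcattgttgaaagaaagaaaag
Gm16599 in Cux1, chr5:136868526-136868775: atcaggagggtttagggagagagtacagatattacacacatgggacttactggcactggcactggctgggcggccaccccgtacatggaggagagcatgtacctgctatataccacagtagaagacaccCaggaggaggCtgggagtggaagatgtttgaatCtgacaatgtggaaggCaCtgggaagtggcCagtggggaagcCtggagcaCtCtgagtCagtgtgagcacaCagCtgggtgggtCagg

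In the Sox6 promoter with 19 listed cytosines, 3 of 18 CpH cytosines had methylated reads. They were at position 122989745 (CAC, 2 of 30 reads), 122989795 (CAC, 2 of 33 reads) and 122989827 (CAT, 2 of 30 reads). Its CpG at 122989863 was methylated in 20 of 22 reads. In the other Sox6 promoter 2 of 5 CpH cytosines had methylated reads, 2 of 23 at 122968373 and 2 of 26 at 122968390, both in CAG. Its CpG at 122968380 was low, with 4 of 23 reads methylated (17.4%). In the Gm16599 promoter 3 of 13 CpH cytosines had methylated reads, and the highest was a CAG at 136868759 with 5 of 24 reads (20.8%). Of these 8 cytosines with methylated reads, 7 stood before adenine and 1 before thymine (CTC at 136868738, 2 of 30 reads). Most of all CpH cytosines listed in these promoters also stood before adenine, so these 8 are too few to show a preference.

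The Sox6 window had a CHG level of 2.06% (exact Clopper-Pearson 95% interval 1.99% to 2.14%), from 3090 methylated of 149846 reads at 6204 sites. Its CHH level, read at other cytosines of the same library, was 2.43% (2.32% to 2.54%, 1789 of 73634 reads, 2259 sites). Each level divides the methylated reads of a set of sites by its total reads. The Cux1 window was higher in both contexts, with 3.13% for CHG (2.99% to 3.27%, 1858 of 59336 reads, 2543 sites) and 3.82% for CHH (3.51% to 4.16%, 527 of 13790 reads, 425 sites). The intervals of the windows did not overlap in either context, which for CHG, the level that chose the windows, is a description only. Intervals here cover counting error only, since amplified reads carried no molecular identifiers and several may stem from 1 molecule.

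Autosomal levels were 0.784% for CHG and 0.889% for CHH. The Sox6 window stood at 2.63 times the autosomal CHG level and 2.73 times the CHH level, and the Cux1 window at 4.0 and 4.30 times. The mitochondrial CpH level, used as the background of failed conversion, was 0.368% (0.365% to 0.370%), below each of these. Most CpH sites had no methylated read even in the windows. This held for 79.4% of CHG and 77.4% of CHH sites in Sox6 and for 75.5% and 71.5% in Cux1, against 89.7% and 86.7% over autosomes.

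Among autosomal tiles as long as the Cux1 window, 0 of 7215 had a higher CHG level and 0 of 6696 a higher CHH level, and the highest tiles reached 2.64% and 3.53%. Among tiles as long as the Sox6 window, 1 of 4149 had a higher CHG level and 4 of 3902 a higher CHH level. The CHG ranks follow the choice of the windows by CHG level and are no support for it. The tiles lie on a fixed grid and may overlap the windows in part. CpG methylation was ordinary by the same measure. It was 78.6% in Sox6 (78.1% to 79.1%, 920 sites), with 40.1% of tiles below it, and 82.8% in Cux1 (82.0% to 83.6%, 367 sites), with 81.9% below it. The autosomal CpG level was 79.03%.

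The loci differed in their flanks of 1 Mb. Around Cux1 the CHG level was 0.704% on the lower side and 0.673% on the upper side, under the autosomal level, and the CHH levels were 0.910% and 1.05%. The Cux1 window was 4.54 times its flanks in CHG and 3.93 times in CHH. The lower flank of Sox6, beyond the gene's 3′ end, was itself above the autosomes at 1.22% for CHG and 1.39% for CHH, and the upper flank was at 0.964% and 1.09%. The Sox6 window was 1.86 times its flanks in CHG and 1.91 times in CHH, which is 0.954 and 1.16 points above them. Against the nearest 250 kb on each side the differences were 0.582 and 0.645 points, and at sites of at least 30 reads the CHG difference was 0.542 points. CpG methylation was 81.5% in the Sox6 flanks, above the window, and 73.7% in the Cux1 flanks, below the window.

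**Figure D1:**
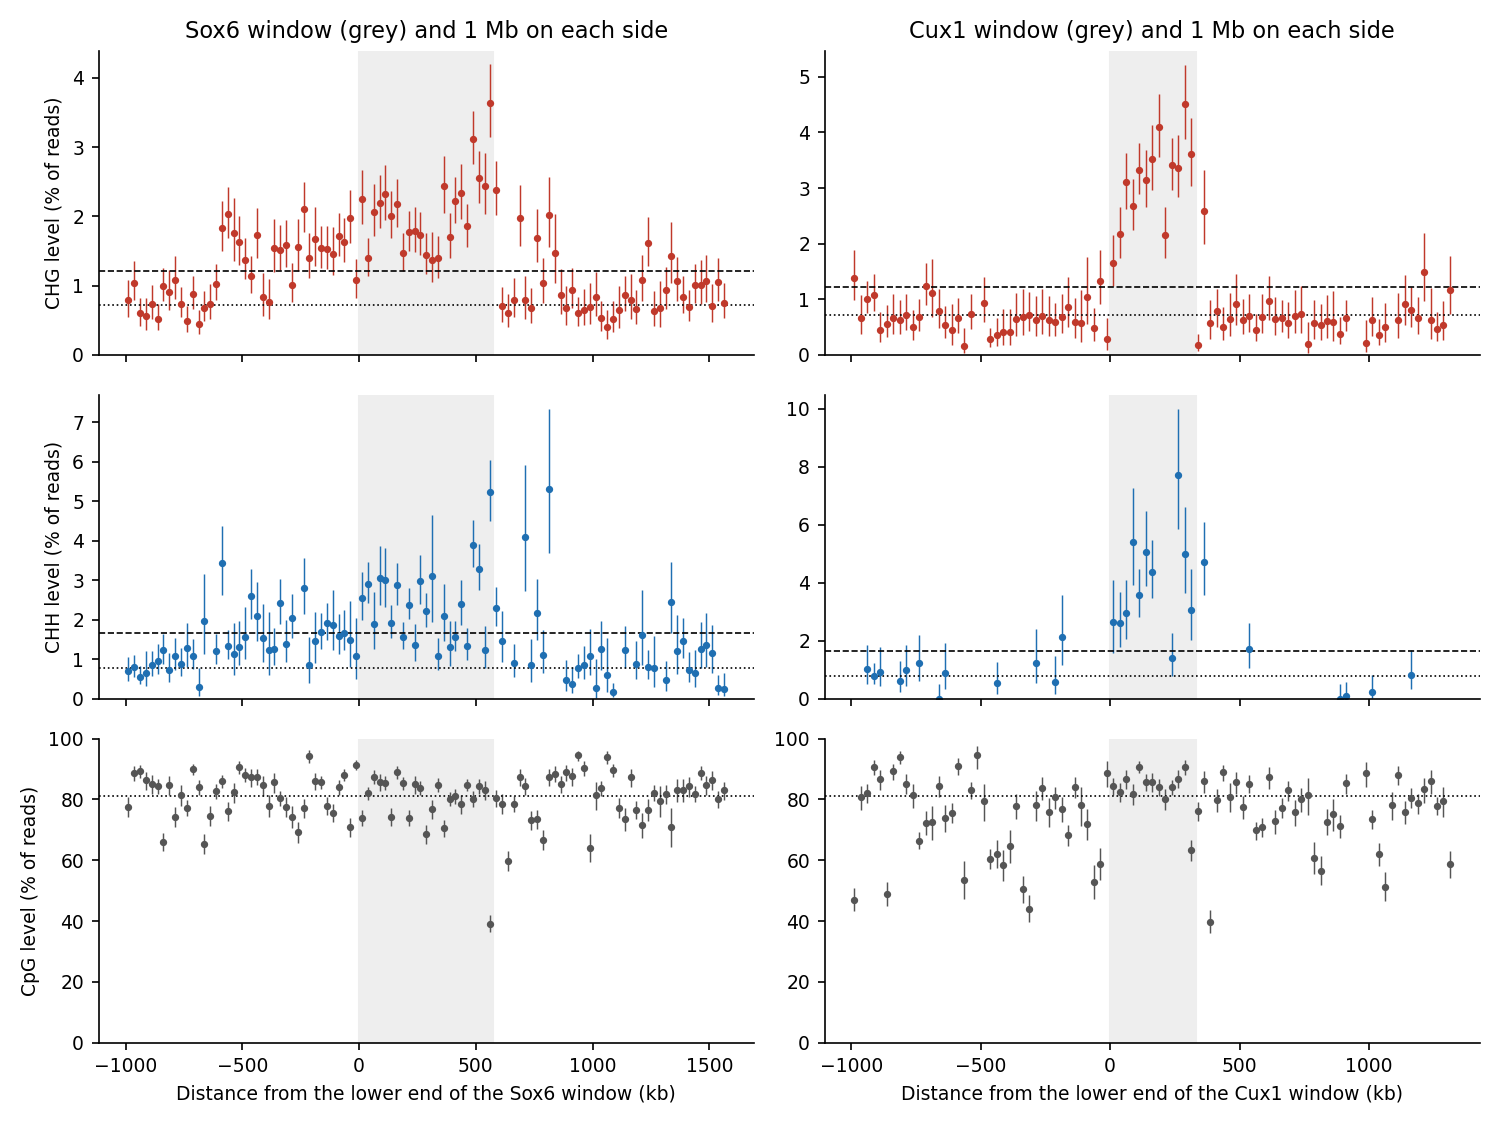
CHG, CHH and CpG levels (% of reads) of replicate 2 in 25 kb steps across the Sox6 window (left) and the Cux1 window (right), each in grey, with 1 Mb on each side, against distance from the window's lower end in kb. Points are levels with exact 95% intervals, dotted lines the autosomal median of 25 kb bins and dashed lines their 90th percentile. CHG steps inside the windows lie between 1.37% and 3.64% in Sox6 and between 1.66% and 4.51% in Cux1, and the raised CHG levels go on below the Sox6 window.

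A step was called high in CHG at or above 1.22%, the 90th percentile of autosomal bins, which 10.0% of bins reach by definition. All 23 Sox6 steps and all 13 Cux1 steps were high, a count that the choice of the windows fixes. For CHH the 90th percentile was 1.66%, again reached by 10.0% of bins. By that limit 16 of 23 Sox6 steps and 10 of 11 measured Cux1 steps were high. A CHH level needed at least 20 sites, which steps 8 and 9 of Cux1 did not have. The lower bound of the CHH interval lay above the autosomal median of 0.778% in 22 of 23 Sox6 steps and in 11 of 11 Cux1 steps. The share of autosomal bins that meet this limit was not computed. By level alone, 33 of 38 measured lower and 22 of 33 upper flank steps of Sox6 were above the median. Around Cux1 it was 8 of 12 and 3 of 6.

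Within Sox6 the highest CHG levels lay at the 5′ side. Step 23, the uppermost (chr7:123160000-123184999), was the highest in both contexts, at 3.64% for CHG (3.15% to 4.19%) and 5.23% for CHH (4.49% to 6.06%). Leaving out its top site left 3.29% and 4.38%. It was also the step with the lowest CpG level, 39.1%, an average over stretches of low and of high CpG methylation. Steps 20 and 21 came next, with CHG at 3.12% and 2.55% and CHH at 3.90% and 3.30%. The lowest CHG level was in step 13 (chr7:122910000-122934999), at 1.37% (1.05% to 1.77%), and its neighbours, steps 12 and 14, were at 1.45% and 1.40%. Steps 2 and 8 were as low, at 1.39% and 1.47%. None of these 5 intervals overlapped those of steps 20 and 23. Since the steps were picked as the lowest and highest of the window, this is a description and no test. The median step was at 2.07%.

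The contexts did not share all their low points in Sox6. Step 13 had a CHH level of 3.10% from 22 sites, above the window's level, although it was lowest in CHG. The lowest CHH level was in step 14 (chr7:122935000-122959999), at 1.08% (0.738% to 1.54%). Across the 23 steps Spearman's rho between CHG and CHH was 0.33 and Pearson's r 0.61, a description of steps that share a library and its depth. Between CHG and CpG rho was -0.09 and r -0.49.

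Within Cux1 the lowest CHG level was in step 1, at the 3′ side. Step 1 (chr5:136720000-136744999) was at 1.66% (1.24% to 2.16%) and step 2 at 2.17%. Steps 3 to 8 were between 2.67% and 4.10%, step 9 was at 2.16%, and steps 10 to 13 were between 3.36% and 4.51%. The highest was step 12 (chr5:136995000-137019999), at 4.51% (3.88% to 5.21%), where CHH was 4.98% and CpG 90.6%. Here the high CHG step was highly methylated at CpG, while step 23 of Sox6 was low in CpG as an average. That average hides a stretch lying mostly in step 23, chr7:123156794-123171793. It was at 85.8% for CpG, with 4.19% for CHG and 6.67% for CHH.

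The CHH levels of Cux1 steps rest on few sites. The highest was step 11 (chr5:136970000-136994999), at 7.73% (5.84% to 9.98%) from 22 sites, or 5.67% without its top site. The lowest was step 10 (chr5:136945000-136969999), at 1.39% (0.782% to 2.29%), where 9 of 15 methylated reads came from 1 site, although its CHG level was 3.41%. Spearman's rho between CHG and CHH was 0.22 over 11 steps.

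The edges of high CHG were sought outward from each window's middle, up to the first pair of neighbouring steps that were not high. In Cux1 the high span ran over 425 kb, from 136670000 to 137094999, with 15 of 17 steps high. At both ends of the window, inside this span, the level fell within 1 step. The step just below the window was at 0.285% (0.093% to 0.664%), against 1.66% in step 1. The step at the upper end, which starts inside the window but lies mostly above it, was at 0.186% (0.075% to 0.382%), against 3.61% in step 13. One more step beyond each of these was high, at 1.33% below and at 2.60% above, where CHH was 4.70%. After them the level was 0.481% and 0.569%.

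In Sox6 the high span was longer than the window. It ran over 975 kb, from 122235000 to 123209999, with 37 of 39 steps high, and began 375 kb below the window. The step just below the window was not high, at 1.08%, and the next below it was at 1.97%. Below the lower edge the CHG level was 0.765% and then 0.832%, but the step after these, from 122160000, was high again at 1.74%, and 5 further steps between 122010000 and 122134999 were at 1.37% to 2.04%. On the upper side the span ended 1 step above the window. That step was at 2.38% for CHG and 2.31% for CHH, and the following steps were at 0.70% and 0.602%. High steps recurred further up, at 1.97% from 123285000, 1.69% from 123360000, 2.02% from 123410000 and 1.47% from 123435000. In all, 19 of 40 steps of the lower flank and 7 of 40 of the upper flank were high, against the 10.0% of autosomal bins. With the 95th percentile of autosomal bins as the limit the Sox6 span was 675 kb and ended inside the window, at 122909999, and with an edge at the first step that was not high it was 600 kb. With 50 kb steps it was 1450 kb, from 122010000 to 123459999, so the ends of the Sox6 region depend on the step size and the limit.

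Runs of low CpG methylation lay near the upper, 5′ ends of both windows. The longest run of listed CpG sites each under 20% methylated, by number of sites, was chr7:123181794-123183711 in Sox6, with 16 CpG sites at 2.59% (1.25% to 4.71%). In Cux1 it was chr5:137043104-137045226, with 10 CpG sites at 1.31% (0.271% to 3.78%). Runs of this kind are usual at active promoters, but no promoter sequence met the placement rule in either. The coordinate shift shared by the placed sequences of the Sox6 locus would put an unplaced Sox6 promoter inside the Sox6 run. That of the Cux1 locus would put the Cux1 promoter just below the Cux1 run. Neither position met the rule. In the Sox6 run the CHG level was 0.578% (0.070% to 2.07%, 2 of 346 reads) and in the Cux1 run 1.19% (0.144% to 4.23%, 2 of 168 reads). Both intervals hold the level of the whole window. The Sox6 run interval lay below that of its own step 23 (3.15% to 4.19%), but overlapped that of the 5 kb below the run (1.03% to 2.46%). In Cux1 the run interval held the level of step 13, 3.61%, so a lower level in that run was not detectable at this depth.

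On either side of the runs the CHG levels of the loci differed. In Cux1 it was 6.13% (3.54% to 9.76%) in the 5 kb below the run, towards the gene, and 0.344% (0.071% to 1.0%) in the 5 kb above it. From 5 to 10 kb it was 3.0% below and 0.106% above. CpG methylation was high on both sides, at 70.6% below and 67.4% above in the nearest 5 kb and at 87.9% and 78.1% in the next. In Sox6 the level above the run was still 5.01% (3.94% to 6.26%) in the first 5 kb and 3.42% in the next, and it fell to 0.739% (0.479% to 1.09%) from 10 to 25 kb. Below the Sox6 run it was 1.63% in the first 5 kb and 7.07% (5.12% to 9.47%) from 5 to 10 kb. That last stretch was itself low in CpG methylation, at 18.4% over 7 CpG sites, and its CHG level rests on 8 of 24 sites with methylated reads. From 10 to 25 kb below the Sox6 run, CHG was 4.19% and CpG 85.8%.

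**Figure D2:**
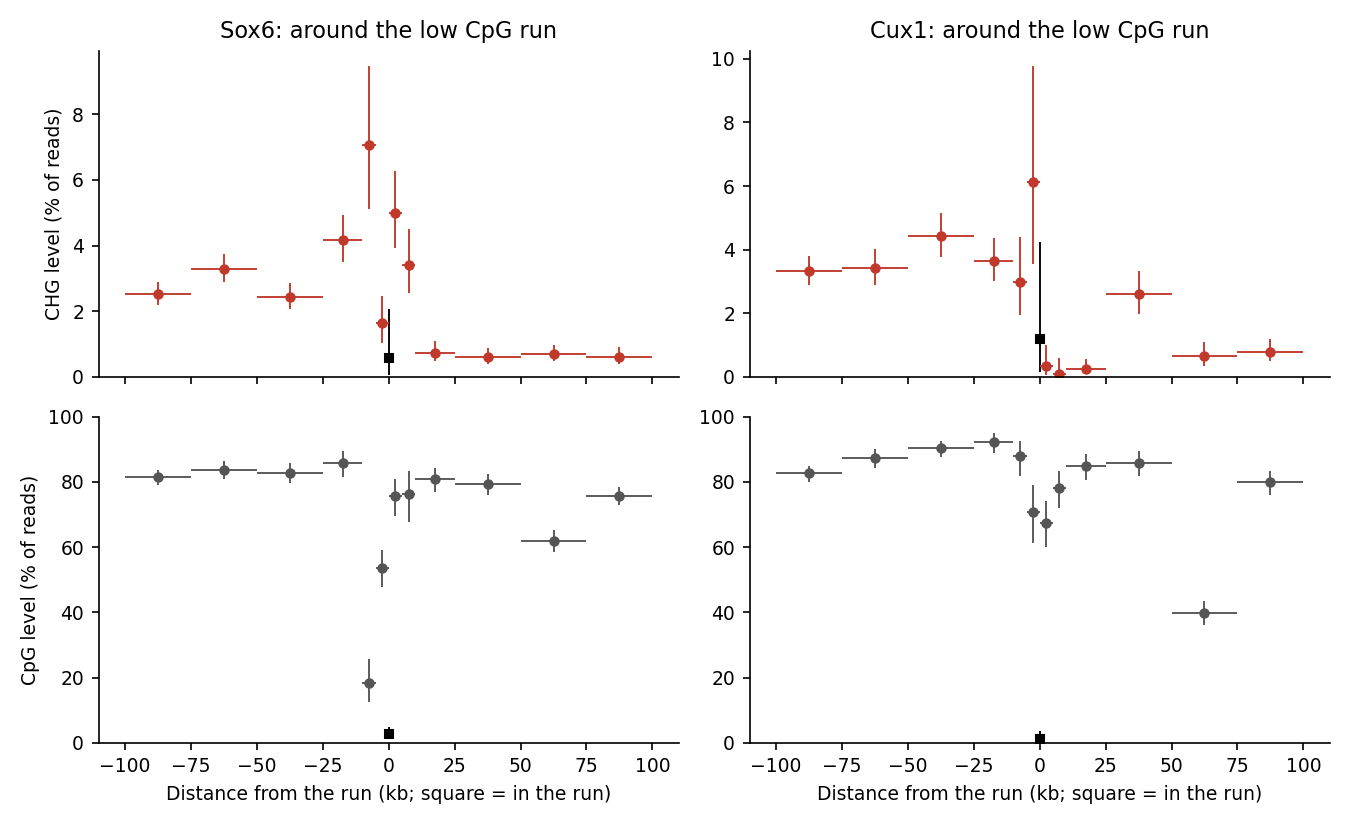
CHG (top) and CpG (bottom) levels (% of reads) around the longest run of low CpG sites in Sox6 (left) and Cux1 (right), against distance from the run in kb, negative towards the gene. Squares are the run itself, circles the bins on each side with horizontal bars for bin width, and vertical bars are exact 95% intervals. In Cux1 the first 3 bins above the run are at 0.344%, 0.106% and 0.246% CHG and those below at 6.13%, 3.0% and 3.66%.

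Sites followed by another cytosine served as the control for failed conversion, because CpH methylation in brain is rare there. With no genome sequence, the neighbours were taken from the listed cytosines, so a site with no listed neighbour may still have an unlisted cytosine next to it. In Sox6 the control level was 0.746% for CHG (0.508% to 1.06%, 31 of 4153 reads) and 0.510% for CHH (0.408% to 0.628%, 87 of 17073 reads). In Cux1 it was 0.659% for CHG (0.330% to 1.18%, 11 of 1668 reads) and 0.587% for CHH (0.369% to 0.888%, 22 of 3745 reads). The autosomal control levels were 0.432% and 0.355%. The control was therefore somewhat above the autosomes in both windows, at 1.73 and 1.43 times the autosomal CHG and CHH control in Sox6 and 1.53 and 1.65 times in Cux1. The interval of Cux1 CHG included the autosomal value and the other 3 did not. Against the flanks, the Sox6 CHG control was 2.49 times as high (0.30%, 0.201% to 0.431%, in the flanks), with intervals apart, a larger ratio than the 1.86 of CHG sites with no listed neighbour. The other control ratios to the flanks were 1.24 for Sox6 CHH, 1.82 for Cux1 CHG and 1.92 for Cux1 CHH. The part of failed conversion in the window levels was not tested beyond these values.

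The other classes stood much further from the autosomes. CHG sites with no listed cytosine next to them were at 2.10% in Sox6 and 3.20% in Cux1, against 0.795% over autosomes. CHH sites with a cytosine listed 2 bases on, and none next to them, were the highest class. They were at 7.27% in Sox6 (6.81% to 7.74%, 380 sites) and 8.25% in Cux1 (7.25% to 9.34%, 86 sites), against 2.06% over autosomes, 3.09% in the Sox6 flanks and 2.32% in the Cux1 flanks. CHH sites with neither neighbour listed were at 1.83% in Sox6 (1.71% to 1.958%) and 3.80% in Cux1 (3.37% to 4.26%), against 0.767% over autosomes. In points, the control CHH level was 0.15 above the autosomes in Sox6 and 0.23 in Cux1, while the whole CHH level was 1.54 and 2.93 above. For CHG the control was 0.31 points above the autosomes in Sox6 and 0.23 in Cux1, and the whole CHG level 1.28 and 2.35.

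**Figure D3:**
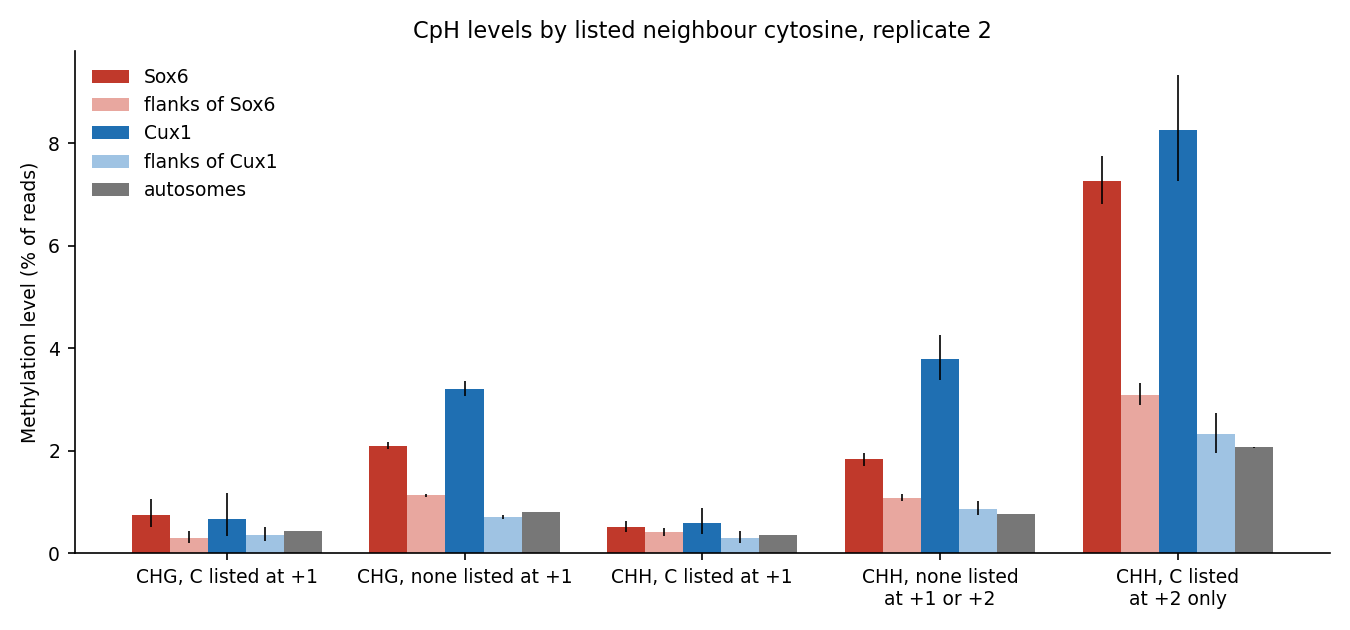
Methylation level (% of reads) of CHG and CHH sites by listed neighbour cytosine in the Sox6 and Cux1 windows, their flanks and the autosomes in replicate 2, with exact 95% intervals. Sites with a cytosine listed at the next base stay under 0.75% in every region, while CHH sites with a cytosine 2 bases on reach 7.27% in Sox6 and 8.25% in Cux1.

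A single site was called methylated where its reads exceeded, in an exact binomial test (one-sided), the mitochondrial rate, with Benjamini-Hochberg adjustment at 0.01 over all nuclear sites of the context. For CHG, 1.46% of all nuclear sites were called, and 328 of 6204 sites in Sox6 (5.29%) and 225 of 2543 in Cux1 (8.85%), counts that follow the choice of the windows. For CHH, 2.75% of all nuclear sites were called, against 185 of 2259 in Sox6 (8.19%) and 61 of 425 in Cux1 (14.4%). The CHH shares in the flanks were 4.29% for Sox6 and 3.23% for Cux1. For CpG, 97.5% of nuclear sites were called and the windows were near this background, with 898 of 920 and 354 of 367. The median level of a called site was 18.8% for CHG and 16.1% for CHH in Sox6 and 19.0% and 17.1% in Cux1. Levels over 40% were found at 22 CHG and 23 CHH sites of Sox6 and at 21 and 6 of Cux1. In the flanks they were found at 18 of 16227 CHG and 6 of 4499 CHH sites for Sox6. For Cux1 it was 3 of 8122 and 1 of 1022. The CHG counts follow the choice of the windows, and the share over all nuclear sites was not computed.

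**Figure D4:**
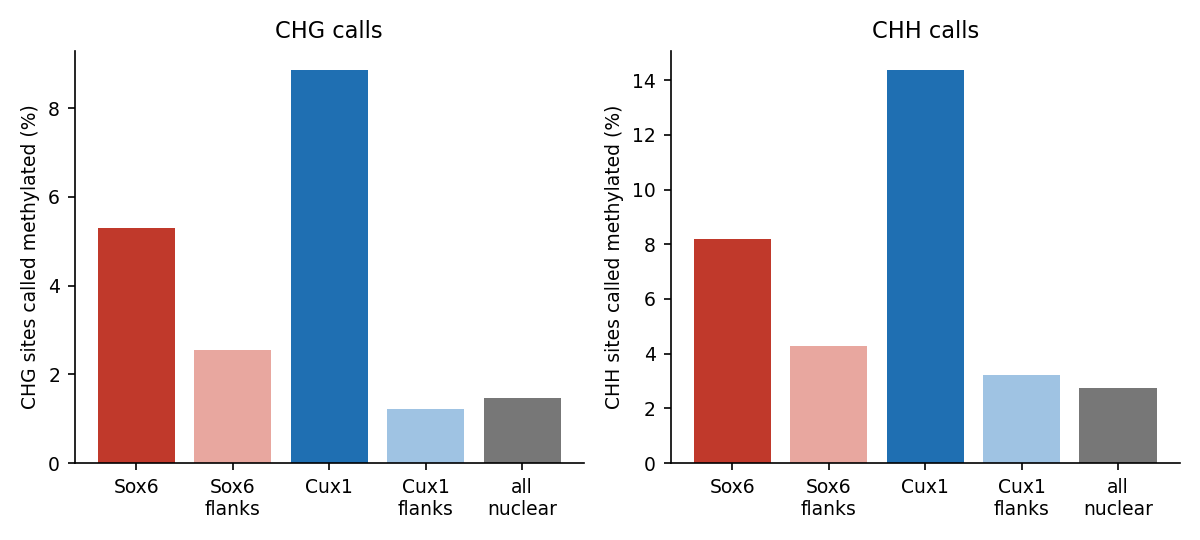
Percent of CHG sites (left) and CHH sites (right) called methylated in the Sox6 and Cux1 windows, their flanks and all nuclear sites of replicate 2, without error bars because each bar is a count of calls. Cux1 reaches 8.85% for CHG and 14.4% for CHH, Sox6 5.29% and 8.19%, and all nuclear sites 1.46% and 2.75%.

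Calls followed the neighbour classes. Of CHH sites with a cytosine listed 2 bases on, 92 of 380 were called in Sox6 and 27 of 86 in Cux1. Of those followed directly by a listed cytosine, 9 of 523 and 1 of 116 were called. For CHG the control class held 1 call of 172 in Sox6 and 1 of 73 in Cux1. The class difference was present over autosomes too, for CHG and CHH together. With another called CpH site within 50 bases, 0.849% of sites followed by a listed cytosine were called, against 4.30% of other sites. Elsewhere the shares were 0.525% and 1.65%. For sites followed by a listed cytosine, the Sox6 shares were 1.69% near a called site and 1.25% elsewhere, from 5 calls each. In Cux1 they were 1.02% and 1.10%, from 1 call each. The control class was thus called more often in both windows than over autosomes, on few calls. The autosomal share for sites with a cytosine listed 2 bases on was not computed.

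The highest CHH sites were methylated in most reads. In Sox6 the highest with at least 30 reads was at position 123170133, in step 23, with 29 of 33 reads (87.9%, 71.8% to 96.6%, adjusted p = 8.68e-62 by the exact binomial test). The next were at 123107791 with 26 of 32 reads and at 122691934 with 24 of 34. In Cux1 the highest was at 136889054 with 22 of 32 reads (68.8%, adjusted p = 1.70e-42 by the exact binomial test). It was followed by 136862212 with 19 of 30 and 136800306 with 16 of 31. None of these 6 sites had a listed cytosine at the next base.

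Among CHG sites with at least 30 reads, given as a description, the highest were in part close to these. Called CHG sites of fewer reads reached 86.4% in Sox6 and 95% in Cux1. In Sox6 the site at 123107798 had 20 of 33 reads methylated (60.6%) and lay 7 bases from the CHH site at 123107791. The others of the top 3 were at 122830947 with 11 of 33 reads and at 122631732 with 10 of 32. In Cux1 the site at 136862233 had 12 of 31 reads methylated and lay 21 bases from the CHH site at 136862212, and those at 136748723 and 136844068 had 12 of 30 and 12 of 32.

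Methylated CpH sites lay near each other in both windows, as they did over autosomes, so this is no trait of the windows. The levels pool CHG, by which the windows were chosen, with CHH. Sites without a listed cytosine at the next base had a level of 3.44% (3.29% to 3.599%) in Sox6 where another called CpH site lay within 50 bases, against 1.94% elsewhere. In Cux1 the levels were 4.50% (4.25% to 4.77%) and 2.88%, and over autosomes 1.42% and 0.795%. At sites followed by a listed cytosine the intervals of both groups overlapped, at 0.591% (0.447% to 0.766%) and 0.528% (0.405% to 0.676%) in Sox6 and at 0.534% (0.306% to 0.866%) and 0.703% (0.410% to 1.12%) in Cux1. Over autosomes this class was also higher near called sites, at 0.427% (0.424% to 0.431%) against 0.360% (0.359% to 0.362%). Sites within 50 bases can share reads.

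Single CpG sites were mostly high. The median site was at 89.1% in Sox6 and 92.0% in Cux1, against 88.5% over autosomes. At 80% or more were 606 of 920 sites in Sox6 (65.9%) and 275 of 367 in Cux1 (74.9%), against 66.6% over autosomes. Under 20% were 50 sites in Sox6 (5.43%) and 17 in Cux1 (4.63%), near the 5.10% over autosomes. A second run of 7 low CpG sites in Sox6, at chr7:123175751-123178465, was at 1.92%, and both runs lay in step 23, the step with the lowest CpG and the highest CpH level. Within that step high CpH levels were also found where CpG was high, in the stretch 10 to 25 kb below the longest run (CpG 85.8%, CHH 6.67%).

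Replicate 1 could not be used to check these levels. It listed 1 CpG, 1 CHG and 8 CHH sites in the Sox6 window and 2, 3 and 14 in the Cux1 window. Its CHH reads were methylated in 1 of 175 in Sox6 (0.571%, 0.014% to 3.14%) and in 0 of 300 in Cux1, for which the exact interval reaches 1.22%. That bound lies under the Cux1 level of replicate 2, but the 14 sites were not matched to the same cytosines. Of 54732 sites shared by the libraries, 0.0238% differed by the two-sided Fisher's exact test, so the 3 of them in the windows, of which 0 were called (adjusted p = 1 at each), say nothing about the windows. The lowest unadjusted p of the 3 was 0.108 by the exact test, at the CHG site at position 136913355, with 0 of 21 reads methylated in replicate 1 and 4 of 22 in replicate 2.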

How the data were processed

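Bisulfite reads of 2 dentate gyrus libraries were handled with Bismark 0.7.5 on mm9, per the submitters' processing notes. How reads were trimmed or PCR duplicates treated is not given in the sources used here. Deposited by the authors were 6 tables with counts of methylated, unmethylated and all reads per cytosine of 1 strand class, and a percent of methylated reads per site, which the authors' counts give back. The lowest depth listed in replicate 2 was 20 reads for CpG and CHG and 30 for CHH, so levels of these contexts come from sites of different depth.

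Levels, exact Clopper-Pearson intervals, binomial calls and Fisher's exact tests were computed from the counts with Python 3.11.15, numpy 2.4.6, scipy 1.17.1 and pandas 2.3.3, and tested on simulated data. A step needed 50 CHG, 20 CHH or 5 CpG sites. Calls were adjusted by Benjamini-Hochberg at 0.01, and the library comparison at 0.05. The windows, lists and rules were chosen with earlier results of these data known. Named were the highest and lowest steps by CHG and CHH, the 3 called CHG and CHH sites of highest level with at least 30 reads in each window, and the longest run of at least 4 CpG sites under 20%. Other steps and sites given were chosen after their values were seen.

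Promoter sequences (RefSeq, GRCm38.p6) were placed where at least 6 listed cytosines matched in context, none mismatched, the lead over the next-best place was at least 2 and another sequence of the locus had the same shift. Related genes (Sox5, Sox13, Cux2 and others) were not used here, since no gene positions of mm9 were given. The lambda reads were not analysed here. Alternatives covered depth, weighting, background, flank width, call thresholds and step grids.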

Additional observations from a re-analysis of the deposited data

How the results depend on the processing

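Of 83 alternatives to 20 results, 60 stayed within the counting interval or 1.5 times the count or span length, 23 moved and 0 reversed. For spans only the length was compared. The 60 therefore include the Sox6 span of 1450 kb and that of 675 kb (95th percentile), which ended inside the window. At sites of at least 30 reads in all contexts, CpG was 80.8% in Sox6 and 90.3% in Cux1, CHG was 1.71% and 3.74%, CHG minus the flanks was 0.542 and 2.96 points, and 35 and 21 CHG sites were called, as fewer sites were tested. The Sox6 span was then 25 kb, with 2 measured steps in the window, and Cux1 gave no span. The control CHG levels there were 0% in Sox6 and 3.33% in Cux1. After subtraction of the mitochondrial level, CHG was 1.69% and CHH 2.06% in Sox6, and 2.76% and 3.45% in Cux1. Against flanks within 250 kb, the Sox6 differences were 0.582 points for CHG and 0.645 for CHH (0.954 and 1.16 with 1 Mb), and the Cux1 CHH difference was 2.02 points (2.85 with 1 Mb). With a background rate of 1%, 187 CHG and 109 CHH sites were called in Sox6 and 142 and 40 in Cux1. With an edge at the first step that was not high, the Sox6 span was 600 kb, and with 50 kb steps 1450 kb. The cause was not tested where none is given. No paired analysis was possible because there is 1 group, and leaving out a replicate was not run because the levels use replicate 2 alone. Depth limits single sites: a call needed at least 3 methylated CpH reads.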
